A study of Mus musculus with 15 samples.

Results

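The SLC25 genes encode the mitochondrial carrier family, and their transcripts were followed in infarcted left ventricles of neonatal and adult mice. Members were all protein-coding rows whose symbol is Slc25a followed by a number. This gave 47 of 39331 genes in the deposited count table, and 41 of them passed the filter on low counts that left 16437 genes for testing. The mice were C57BL/6, and every heart had undergone experimental myocardial infarction. The 15 libraries fell into 4 groups: neonatal hearts that received adult T cells (n = 4, numbers 1, 2, 4 and 5), neonatal control hearts (n = 4, numbers 6 to 9), adult hearts that received adult T cells (n = 4, numbers 1 to 4) and adult control hearts (n = 3, numbers 5 to 7). Polyadenylated RNA was sequenced. A time of 36 h is given for neonatal hearts only, ages in days and T cell doses are not stated, and the labels do not say that the libraries came from separate animals. P-values therefore measure the spread between these libraries, which may be technical in part.

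Carriers of this family sit in the inner mitochondrial membrane, with a few exceptions in other membranes, and exchange nucleotides, phosphate, carboxylates, amino acids, cofactors and metal ions between the matrix and the cytosol. The heart depends on them because ATP made in the matrix must leave in exchange for ADP, and because fuel and reducing equivalents must enter. Around birth the heart turns from glycolysis toward fatty acid oxidation, and adult cardiomyocytes are packed with mitochondria.

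Levels are given as CPM, counts scaled to a common library total with TMM scaling factors, as mean ± SD, and differences as log2 fold changes ± standard error from edgeR. A call is an adjusted p below 0.05 over all genes tested. Total counts ran from 21871617 to 34302786 per library, so that 3 counts equalled 0.0875 to 0.137 CPM of the unscaled total, for counting error only. The cardiomyocyte markers Myh6, Tnnt2, Actc1, Ryr2, Myl2 and Pln were present in every library, with summed levels of 34990 to 57270 CPM. The CD3 transcripts that define T cells were low in all groups. Their sum spanned 0.212 to 1.06 CPM (neonatal recipients) and 0.287 to 0.887 CPM (neonatal controls), and 1.01 to 1.91 CPM against 0.609 to 1.06 CPM for the same adult groups, so recipients overlapped controls at both ages. Markers of liver stayed at or below 2.07 CPM and those of testis at or below 0.0375 CPM. In bulk tissue, fewer cells of a type and less RNA per cell cannot be told apart.

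The family was dominated by 1 gene. Summed over all members, carriers reached 7307 to 7945 CPM (adult controls), 8240.2 to 9379 CPM (adult recipients), 5878 to 7490.5 CPM (neonatal controls) and 5842 to 6692 CPM (neonatal recipients). Slc25a4, the ADP/ATP translocase of heart and skeletal muscle, supplied 50.2% to 56.3% of that sum in each library. Per kilobase of the longest annotated transcript, adult controls carried 2177 CPM of Slc25a4, 338 of Slc25a5, the translocase of proliferating cells, 282 of Slc25a3, the phosphate carrier, 220.0 of the oxoglutarate/malate carrier Slc25a11 and 115 of the glutathione carrier Slc25a39. Before division by length Slc25a3 exceeded Slc25a5 in adult controls, at 1138 against 419 CPM. Their order per kilobase therefore depends on the lengths used, 4039 and 1240 bases. These 5 genes held the first 5 places per kilobase in all 4 groups, and the carnitine-acylcarnitine carrier Slc25a20 held place 6. Below them the order moved with age. Slc25a34, a carrier whose substrate is not settled, stood at place 7 in both adult groups, at 12 in neonatal controls and at 13 in neonatal recipients. The glutamate carrier Slc25a22 stood at place 22 in adult controls and 30 in neonatal controls, and the ATP-Mg/phosphate carrier Slc25a24 at 26 and 19. At the other end, Slc25a31, the translocase known from testis, was last of the tested members in each group, at 0.614 ± 0.612 CPM in adult controls and 0.597 ± 0.368 in neonatal controls. The 6 members that failed the filter were Slc25a2, Slc25a18, Slc25a21, Slc25a41, Slc25a48 and Slc25a54. The highest of them was Slc25a18, the second glutamate carrier, at 0.0846 to 0.638 CPM over all libraries, and Slc25a54 had a rounded count of 0 in every library.

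The family had more calls between ages than between recipients and controls. In the control hearts, 17 of 41 tested members differed between neonates and adults (41.5%, against 30.9% of all genes tested). Of these, 14 were lower in neonates, where 15.6% of all genes were lower, and 3 were higher, where 15.4% of all genes were higher. The median log2 difference, neonatal minus adult, was -0.15 over the tested members and 0.02 over all genes. TMM factors were apart by age, at 0.884 to 0.970 in adult libraries and 1.022 to 1.094 in neonatal ones. The size of each age difference therefore depends on this scaling. Without adult control 5 the count of called members was 10, and 21.4% of all genes were then called. DESeq2 called 20 members, adding Slc25a5, Slc25a29 and Slc25a51. Libraries of both groups did not overlap for 16 members, 14 of them called, against 34.6% of all genes. In the hearts that received T cells, 25 members differed (61%, against 50.7% of all genes), 17 lower in neonates against 23.8% of all genes and 8 higher against 26.9%. The median there was -0.18 over members and 0.03 over all genes, and the 24 members without overlap were all called, beside 45.4% of all genes. Both age comparisons rest on separate libraries. They shared 16 called members, 13 lower and 3 higher in neonates at both, and none in opposite directions, while 26.0% of all genes were called in the same direction in both. Slc25a16 was called in controls alone, 9 members were called in recipients alone, and 32 of 41 members had the same sign. Across the 41 genes, which are not independent replicates, the 2 sets of log2 differences had a Pearson correlation of 0.902 and a Spearman correlation of 0.802.

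**Figure D1:**
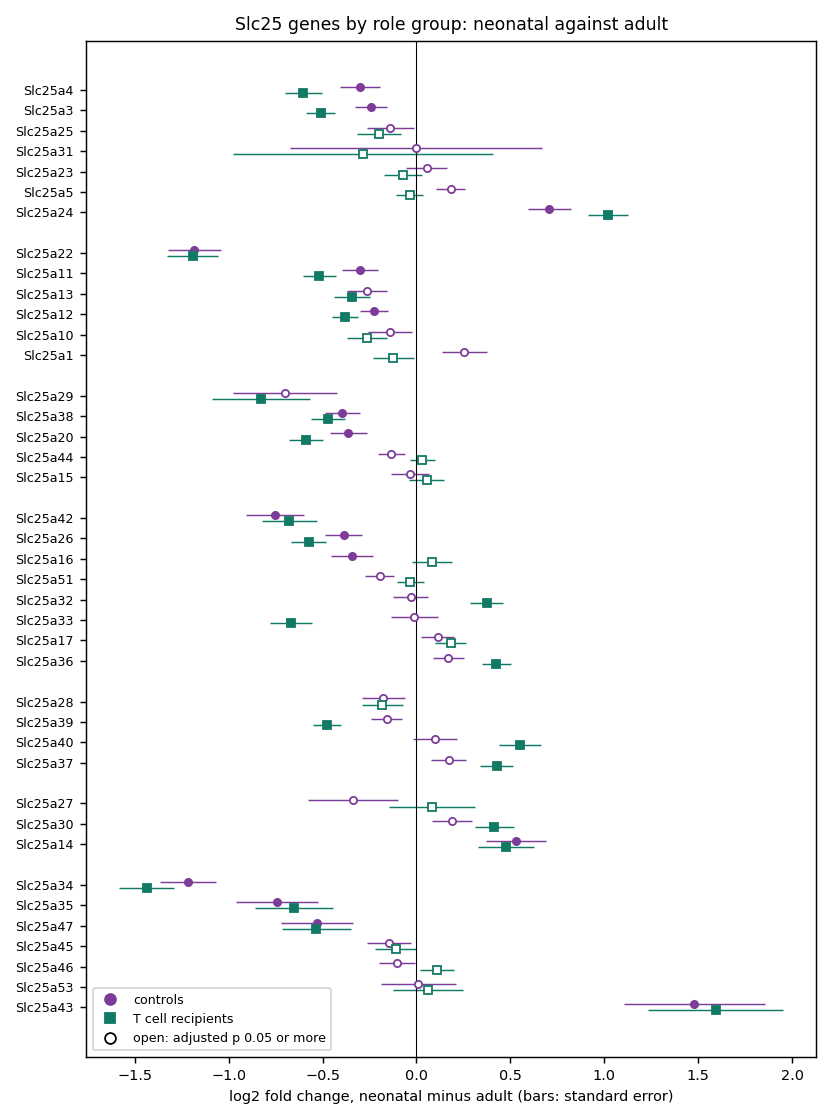
Log2 fold change of tested carrier genes (1 is not shown), neonatal minus adult, in control hearts (purple circles) and T cell recipients (green squares), with bars for the standard error. Genes are grouped by role, filled symbols mark an adjusted p below 0.05, and Slc25a34, Slc25a22 and Slc25a43 lie beyond a 2-fold difference in both comparisons.

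The widest fall belonged to Slc25a34. Its level was 46.6, 40.3, 65.3 and 44.7 CPM in neonatal controls 6 to 9 and 113, 117.29 and 113 CPM in adult controls 5 to 7. Each neonatal library lay well below each adult one, with a log2 difference of -1.22 ± 0.151 (adjusted p = 3.41e-05), or 2.32-fold lower in neonates. Recipients gave 31.4, 46.8, 44.5 and 49.8 CPM in neonates and 120.3, 125, 118 and 103 CPM in adults, again without overlap, and a log2 difference of -1.44 ± 0.144 (adjusted p = 1.39e-06). Slc25a35, its closest relative and also without an agreed substrate, was far scarcer, at 1.66 ± 0.251 CPM in neonatal controls and 2.79 ± 0.428 in adult controls, and was lower in neonates as well (-0.74 ± 0.2201, adjusted p = 0.0156), a call lost without adult control 6.

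Slc25a22, which brings glutamate into the matrix together with protons, followed. Neonatal controls had 19.9, 21.7, 19.9 and 19.6 CPM and adult controls 40.2, 44.7 and 53.3 CPM, a log2 difference of -1.18 ± 0.142 (adjusted p = 1.47e-05). The neonatal values stayed within a narrow band, and each adult library lay above it. In recipients the values were 15.4, 18.4, 24.01 and 23.9 CPM in neonates and 52.2, 50.96, 37.3 and 45.5 CPM in adults, with a difference of -1.19 ± 0.135. Its partner gene for the same substrate, Slc25a18, was close to the counting floor at both ages.

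Slc25a24 moved the other way. This carrier exchanges ATP-Mg for phosphate and is gated by calcium. It was read at 29.2, 27.98, 27.8 and 27.4 CPM in neonatal controls and 17.9, 15.9 and 17.9 CPM in adult controls, 1.63-fold higher in neonates (0.71 ± 0.115, adjusted p = 0.000202). All 4 neonatal libraries lay above all 3 adult ones. The recipients repeated the order with 37.1, 30.6, 26.3 and 26.99 CPM in neonates and 15.6, 13.1, 17.3 and 13.8 CPM in adults (1.02 ± 0.107, adjusted p = 7.87e-07). Slc25a23, the relative with the same substrates, did not pass the test at either age comparison (0.05 ± 0.108 in controls and -0.07 ± 0.10002 in recipients). Its neonatal controls had 124, 127, 101 and 124 CPM and its adult controls 113, 103 and 128 CPM, and the groups overlapped. Slc25a25, the other calcium-gated relative, was not called either, with 17.6 ± 0.966 CPM in neonatal and 19.4 ± 4.67 CPM in adult controls.

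**Figure D2:**
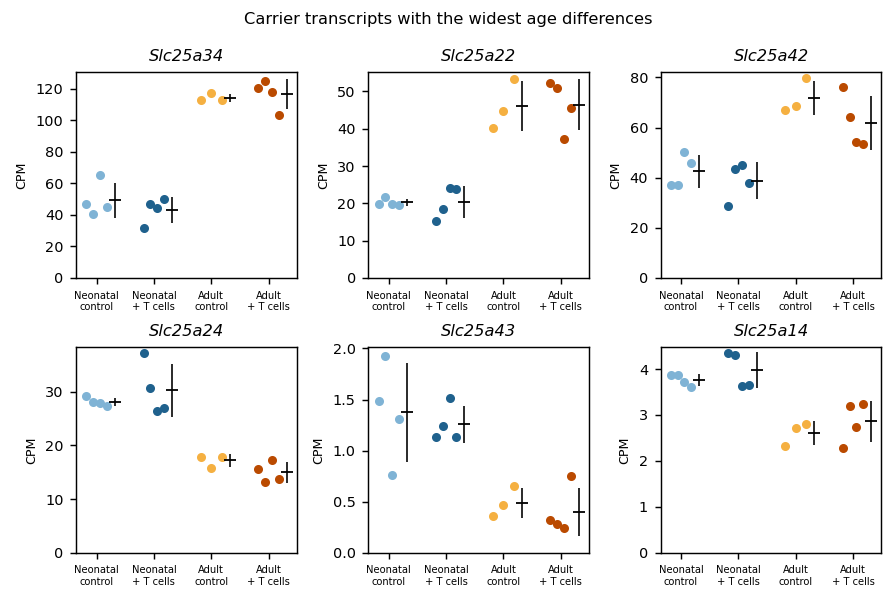
CPM per library in the 4 groups for 6 carrier genes called between neonatal and adult controls, with a tick and bar for the mean and SD of each group. Slc25a34, Slc25a22 and Slc25a42 are lower in every neonatal library than in any adult library, and Slc25a24 and Slc25a43 are higher in every neonatal library.

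The promoters of these 3 genes and of the ADP/ATP translocases Slc25a4 and Slc25a5 are shown because they belong to the widest age differences and to the most abundant pair per kilobase. Sequences are from RefSeq on GRCm38.p6, 250 bases before to 50 after a start, 5′ to 3′ on the strand of the gene; 36 of 47 members had at least 1 such window. Capitals mark AAGGTCA, the core of the site known for oestrogen-related receptors, or CCGGAAG, an ETS-type site, read on either strand.
Slc25a34, chr4:141623785-141624084, minus strand: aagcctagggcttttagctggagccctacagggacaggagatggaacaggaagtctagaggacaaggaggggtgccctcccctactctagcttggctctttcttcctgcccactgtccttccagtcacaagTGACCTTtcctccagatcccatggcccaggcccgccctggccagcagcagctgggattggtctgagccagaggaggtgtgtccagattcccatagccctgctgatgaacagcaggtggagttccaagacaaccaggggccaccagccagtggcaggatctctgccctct
Slc25a22, chr7:141437825-141438124, minus strand: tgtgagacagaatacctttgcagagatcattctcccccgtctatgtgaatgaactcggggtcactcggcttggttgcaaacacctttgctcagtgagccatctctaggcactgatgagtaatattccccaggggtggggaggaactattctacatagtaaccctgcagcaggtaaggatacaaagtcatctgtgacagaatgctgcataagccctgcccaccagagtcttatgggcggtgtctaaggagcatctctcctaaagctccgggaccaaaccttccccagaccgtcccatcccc
Slc25a24, chr3:109122899-109123198, plus strand: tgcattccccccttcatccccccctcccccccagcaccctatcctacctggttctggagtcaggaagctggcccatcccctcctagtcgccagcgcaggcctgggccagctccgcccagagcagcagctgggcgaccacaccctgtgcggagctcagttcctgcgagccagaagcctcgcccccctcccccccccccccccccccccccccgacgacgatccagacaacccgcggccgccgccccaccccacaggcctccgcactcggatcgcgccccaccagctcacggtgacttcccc
Slc25a4, chr8:46211013-46211312, minus strand: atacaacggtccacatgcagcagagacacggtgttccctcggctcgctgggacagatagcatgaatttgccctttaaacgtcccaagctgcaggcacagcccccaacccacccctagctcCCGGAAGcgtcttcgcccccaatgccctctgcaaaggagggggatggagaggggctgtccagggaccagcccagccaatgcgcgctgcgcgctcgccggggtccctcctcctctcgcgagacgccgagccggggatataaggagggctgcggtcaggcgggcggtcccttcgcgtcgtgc
Slc25a5, chrX:36795347-36795646, plus strand: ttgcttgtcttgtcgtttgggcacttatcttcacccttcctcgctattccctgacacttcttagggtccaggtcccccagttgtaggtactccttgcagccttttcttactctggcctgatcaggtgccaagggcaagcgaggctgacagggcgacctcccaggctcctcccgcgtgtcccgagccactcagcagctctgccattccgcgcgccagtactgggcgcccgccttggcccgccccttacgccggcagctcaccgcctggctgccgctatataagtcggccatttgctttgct
The windows of Slc25a34 and Slc25a22 had GC contents of 59% and 51.7%, and that of Slc25a24 had 72.3%. AAGGTCA occurred in Slc25a34 at position -119 from the start, on the opposite strand, so that it reads TGACCTT above. It was the only match among 46 family windows (2.17%), where 4.72% of 32851 windows of all genes hold it. CCGGAAG lay at position -130 of Slc25a4 and in 7 family windows (15.2%, against 8.86% of all), those of Slc25a3, Slc25a4, Slc25a17, Slc25a20, Slc25a25, Slc25a38 and Slc25a54. The longer form TCAAGGTCA was in 0 family windows and 0.423% of all, and CGCATGCG, the palindrome bound by NRF1, in 0 and 1.87%. AAGATGGC occurred in Slc25a3 alone (2.17%, against 2.75% of all), TGACGTCA in Slc25a25 and Slc25a36 (4.35%, against 1.79%), and TATAAA in Slc25a18 and Slc25a21 (4.35%, against 13.6%). AAGGTCA is part of TCAAGGTCA, and a match is a description of the letters only.

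Among the nucleotide and phosphate carriers, 2 of 7 tested genes were lower in neonatal controls and 1 was higher. Over all genes, 15.6% were lower there and 15.4% higher, and no role group was tested as a set. The lower genes were Slc25a4 and Slc25a3. Slc25a4 was read at 3260.4, 3281, 4101 and 2952 CPM in neonatal controls and 4406, 4316 and 3851 CPM in adult controls (-0.30 ± 0.106, adjusted p = 0.0362), and neonatal library 8 overlapped the adult range. Recipients gave 2960.4, 3137, 3128 and 3499.5 CPM in neonates and 4709.9, 5284, 4842 and 4476 CPM in adults, without overlap (-0.60 ± 0.0985, adjusted p = 6.83e-05). Slc25a3 was lower in each neonatal library than in any adult one, at 962 ± 96.003 against 1138 ± 14.9 CPM in controls (-0.24 ± 0.0835) and 940.4 ± 51.7 against 1340.0 ± 69.6 CPM in recipients (-0.51 ± 0.0778). Leaving out adult control 5 or 6 or neonatal control 6, 7 or 9 ended the control call of each, and leaving out adult control 7 also that of Slc25a3. Slc25a5 was not called by edgeR. Its values were 508, 465, 493 and 438 CPM in neonatal controls and 442, 415 and 401 CPM in adult controls, with overlap (0.18 ± 0.0763, adjusted p = 0.0778). In recipients it had 476, 441, 475 and 494 CPM in neonates and 459, 499, 464 and 512 CPM in adults (-0.04 ± 0.0704, adjusted p = 0.694).

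Among the carboxylate carriers, Slc25a11, Slc25a12 and Slc25a13 serve the malate-aspartate shuttle, which passes reducing equivalents from cytosolic NADH into the matrix. Of 6 tested genes of the whole carboxylate group, 3 were lower in neonatal controls and none was higher. Over all genes, 15.6% were lower there and 15.4% higher. Besides Slc25a22, these were Slc25a11 at 306 ± 33.7 against 376 ± 26.2 CPM (-0.30 ± 0.0961) and the aspartate/glutamate carrier Slc25a12. Slc25a12 had 135, 128, 152 and 145 CPM in neonatal controls and 161, 169 and 161 CPM in adult controls (-0.23 ± 0.0751, adjusted p = 0.0279), without overlap. The control call of Slc25a12 was lost without any 1 of the adult controls or without neonatal control 6 or 7, and that of Slc25a11 without adult control 5 or 6 or neonatal control 7 or 9. Its relative Slc25a13, prominent in liver, had 66.1, 57.5, 78.9 and 66.6 and 76.4, 90.9 and 74.9 CPM, with overlap and no call (-0.26 ± 0.105, adjusted p = 0.0637). In recipients both were lower in neonates, Slc25a12 with 121, 140.3, 135 and 136 against 170.4, 188, 169 and 166 CPM (-0.38 ± 0.0699) and Slc25a13 with 54.97, 67.6, 62.6 and 60.02 against 81.2, 85.2, 77.4 and 67.4 CPM (-0.34 ± 0.0978). Neither the citrate carrier Slc25a1 (0.26 ± 0.118) nor the dicarboxylate carrier Slc25a10 (-0.14 ± 0.117) was called in controls. Of 9 enzymes of the same shuttle and of citrate use, 4 were lower and 1 higher in neonatal controls, with Got2 (-0.48) and Mdh2 (-0.42) among the lower ones.

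Of 5 tested carnitine and amino acid carriers, 2 were lower in neonatal controls, beside 15.6% of all genes. Slc25a20, which carries acylcarnitines to beta-oxidation, had 128, 119, 159 and 119 CPM in neonatal and 166, 175 and 165 CPM in adult controls (-0.36 ± 0.0962, adjusted p = 0.00832), without overlap. Recipients had 117.03, 126, 128 and 129 and 186, 205, 197 and 164 CPM (-0.59 ± 0.0899). Its relative Slc25a29, a carrier of basic amino acids, was scarce at 1.95, 1.63, 0.956 and 1.09 CPM in neonatal and 2.28, 2.1995 and 2.39 CPM in adult controls. Those libraries did not overlap, but the test missed the threshold (-0.70 ± 0.277, adjusted p = 0.06203). In recipients, with 1.38, 0.788, 1.73 and 1.695 and 2.51, 1.84, 2.397 and 3.04 CPM, it was called lower in neonates (-0.83 ± 0.261, adjusted p = 0.013005), though not without neonatal recipient 2. Slc25a38, the glycine carrier needed for heme synthesis, had 13.3, 12.3, 12.5 and 12.7 CPM against 14.9, 18.7 and 16.6 CPM in controls (-0.40 ± 0.0946, adjusted p = 0.00424), again apart. The ornithine carrier Slc25a15 (-0.04 ± 0.101) and the branched-chain amino acid carrier Slc25a44 (-0.13 ± 0.07399) were not called. Of 5 genes of carnitine handling, 4 were lower in neonatal controls, with Crat at -0.53 and Cpt2 at -0.52, and of 9 genes of heme and iron-sulphur synthesis 7 were lower and none higher.

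The cofactor carriers held 4 calls among 9 tested genes in controls, all lower in neonates, beside 15.6% of all genes lower. Slc25a42, the coenzyme A carrier, had 37.1, 37.1, 50.3 and 45.7 CPM in neonatal and 67.2, 68.4 and 79.7 CPM in adult controls (-0.75 ± 0.156, adjusted p = 0.00204), and 28.8, 43.5, 45.02 and 37.7 against 76.2, 64.1, 54.1 and 53.3 CPM in recipients (-0.68 ± 0.147). Neonatal and adult libraries stayed apart in both. Slc25a26, which imports the methyl donor S-adenosylmethionine, had 12.3, 12.05, 15.7 and 12.5 CPM against 18.04, 16.5 and 17.1 CPM in controls (-0.39 ± 0.0995) and was lower in neonatal recipients too (-0.57 ± 0.0934). Slc25a16, linked like Slc25a42 to coenzyme A, had 21.6, 18.5, 23.5 and 21.5 CPM against 26.99, 32.3 and 21.7 CPM, with overlap. It was called in controls (-0.34 ± 0.114, adjusted p = 0.0288) and not in recipients, where neonates had 23.2, 23.2, 23.3 and 20.9 and adults 21.1, 23.1, 22.6 and 18.98 CPM (0.08 ± 0.107, adjusted p = 0.553). The control call was lost without adult control 5, adult control 6 or neonatal control 7, and the log2 difference was -0.19 without adult control 6. The NAD carrier Slc25a51, the peroxisomal Slc25a17, the folate carrier Slc25a32 and the pyrimidine nucleotide carriers Slc25a33 and Slc25a36 had differences between -0.20 and 0.17 in controls and were not called.

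Of the remaining tested carriers, Slc25a43, Slc25a14 and Slc25a47 were called in both age comparisons at low levels. Slc25a43, whose substrate is unknown, had 1.49, 1.93, 0.765 and 1.31 CPM in neonatal controls and 0.3599, 0.465 and 0.649 CPM in adult controls (1.48 ± 0.377, adjusted p = 0.00646), and was higher in neonatal recipients by 1.59 ± 0.359. Slc25a14, an uncoupling-protein-like carrier known from brain, had 3.77 ± 0.132 against 2.61 ± 0.255 CPM (0.53 ± 0.1602), a call lost without adult control 5. Slc25a47, known from liver, had 3.17 ± 0.744 against 4.58 ± 0.469 CPM (-0.53 ± 0.193, adjusted p = 0.0442). That call passed in 5 of the 15 fits that leave out 1 library, and in recipients it was lost without adult recipient 1, adult recipient 2 or neonatal recipient 2. None of the 4 iron and glutathione carriers was called in controls, where 30.9% of all genes were called. Slc25a46, an outer membrane protein tied to mitochondrial fission and fusion, Slc25a45 and Slc25a53 were not called in any comparison. Slc25a43 lies at chrX:36743570-36777307, ahead of Slc25a5 at chrX:36795597-36798808 on the same strand, and edgeR called only the first of these neighbours by age. Slc25a29 at chr12:108825878-108835876 and Slc25a47 at chr12:108849833-108856815 lie next to each other on opposite strands, and both were lower in neonatal recipients.

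Between ages, 9 members were called in recipients but not in controls. Of all genes, 50.7% were called in recipients, 30.9% in controls and 26.0% in both in the same direction. No share of all genes called in recipients alone was computed, so these 9 are not read as particular to the family. Slc25a39 (-0.48 ± 0.0753), Slc25a33 (-0.67 ± 0.114), Slc25a13 and Slc25a29 were lower in neonatal recipients, and Slc25a36 (0.43 ± 0.0779), Slc25a40 (0.55 ± 0.111), Slc25a37 (0.43 ± 0.08902), Slc25a30 (0.42 ± 0.102) and Slc25a32 (0.37 ± 0.0868) were higher. With the length trend removed, Slc25a37 (0.20, adjusted p = 0.0568) and Slc25a32 (0.15, adjusted p = 0.164) no longer passed, and Slc25a36 was at 0.23 (adjusted p = 0.0140). No member passed the test of whether the age difference itself changed with T cells, which is the same contrast as the difference of both T cell effects. The recipient age comparison also shares the adult recipient libraries with the adult T cell comparison, in which Slc25a33, Slc25a39, Slc25a32 and Slc25a30 were called.

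Other mitochondrial genes were read from lists of their own. A list of 28 nuclear genes of oxidative phosphorylation had a median of -0.35 in controls, a range of -0.63 to -0.11, and 23 genes lower in neonates with none higher. Within that range lay 19 carrier genes, 17 lay above it and 5 below. In recipients the 28 genes were all lower, with a median of -0.67, where 23.8% of all genes were lower. There 17 carriers lay within the range of the 28 genes, 22 above and 2 below. ATP synthase subunits and mitochondrial creatine kinase were lower in all 13 tested cases, with Ckmt2 at 177 ± 57.4 against 600.7 ± 57.2 CPM (-1.77). Carriers named outside the Slc25a series fell on the same side. Ucp2 had 169 ± 24.6 CPM in neonatal controls against 361 ± 40.6 in adult controls (-1.10), Ucp3 had 21.5 ± 13.4 against 81.2 ± 15.3 (-1.91), and Mtch1 differed by -0.25, with 3 of 4 tested genes lower. Beside the control counts in this paragraph, 15.4% of all genes were higher in neonates and 15.6% lower. Counts as small as 1 or 2 in such lists are not read as a shift of the list. Of 8 enzymes of folate and glycine metabolism, 2 were higher in neonatal controls and none lower. Mthfd1l stood at 16.6 ± 3.56 against 5.72 ± 0.836 CPM (1.54), and Shmt2 differed by 0.36. Import machinery for carriers gave 1 gene higher (Tomm70a, 0.25) and 1 lower (Timm29, -0.28) of 10. Pyruvate carrier, porin and calcium uniporter genes gave 2 higher, with Mcub at 1.33, and 2 lower (Mpc1, -0.31, and Mpc2, -0.39) of 10, and branched-chain amino acid enzymes gave 2 lower of 6 (Bckdha, -0.91, and Bckdk, -0.25).

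Several cell markers moved with age. Summed cardiomyocyte markers ran from 38210 to 41190 CPM in neonatal controls and 42550 to 44860 in adult controls, with 1 of 6 genes called lower. Macrophage markers ran from 54.8 to 183 CPM against 42.8 to 54.9, endothelial markers from 589 to 648 against 828 to 859, and erythroid markers from 500.4 to 1427 against 1686 to 1819. Among 5 erythroid genes 1 was called higher in neonates, Slc4a1, and none lower. Fibroblast markers overlapped, at 1078 to 2138 against 1094 to 1858 CPM. Skeletal muscle markers, some of which heart also expresses, summed to 1462 to 2080 CPM against 2217 to 2447, with Ckm called lower and Tnnt3 called higher. Of the brown fat markers 1 of 4 was tested. Ucp1, which defines that tissue, was listed at 0 in all adult controls. In each other group it was above 0 in 1 or more libraries. Between recipient ages, cardiomyocyte markers summed to 34990 to 42870 CPM in neonates against 51220 to 57270 in adults, with 5 of 6 genes lower. Macrophage markers there reached 147.6 to 206 CPM against 37.9 to 54.05, with 3 of 3 genes higher. Endothelial markers reached 566 to 675 against 811 to 964 CPM, with 3 of 3 lower, and erythroid markers 737 to 1242 against 2176 to 3075, with 3 of 5 lower. Beside the control counts, 15.6% of all genes were lower in neonates and 15.4% higher. Between recipient ages, 23.8% of all genes were lower in neonates and 26.9% higher. The part of these cell types in the age differences was not tested.

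Ratios within a library compare relatives without the scaling between libraries, but they keep any trend with transcript length. Of 9 pairs of relatives, 8 had both members tested, and each was compared in 4 ways by an exact two-sided permutation test, 32 tests in all. The smallest p that 4 against 4 or 4 against 3 libraries can give is 0.0286. No ratio passed after adjustment over the 32 tests (smallest adjusted p = 0.0914 by permutation), while 10 had an unadjusted p below 0.05. With so few libraries, a ratio could pass only if many of the 32 reached the smallest p together. Failing to pass therefore says little about a single ratio, and each is given here as a size with its spread. Slc25a4 exceeded Slc25a5 by a mean log2 ratio of 2.83 ± 0.163 in neonatal controls and 3.32 ± 0.05697 in adult controls, without overlap (exact permutation p = 0.0571). Per kilobase, Slc25a4 exceeded Slc25a5 4.14- to 5.36-fold in neonatal controls and 6.19- to 6.70-fold in adult controls. In recipients the log2 ratios were 2.75 ± 0.0919 and 3.32 ± 0.128. The ratio of Slc25a23 to Slc25a24 was 2.07 ± 0.153 in neonatal and 2.73 ± 0.0975 in adult controls, a difference of -0.65, and the recipients differed by -1.08, both apart. Slc25a28 against Slc25a37, the 2 mitoferrins that import iron, gave 0.11 ± 0.05602 and 0.45 ± 0.1602 in controls (-0.34) and a difference of -0.61 in recipients. Slc25a28 had 23.3, 27.8, 23.1 and 25.6 CPM in neonatal controls and 28.2, 23.8 and 32.7 in adult controls, and Slc25a37, which serves developing red cells, had 21.4, 24.5, 21.7 and 24.8 and 21.6, 18.9 and 21.1. Neither gene was called alone in controls. The Slc25a12 to Slc25a13 ratio differed by 0.04 between control ages (exact permutation p = 0.629), with overlap and with either sign when 1 library was left out. Slc25a42 against Slc25a16 differed by -0.43 in controls with overlap (-0.60 to -0.21 with 1 library left out) and by -0.76 in recipients without, and Slc25a20 against Slc25a29 overlapped in both. Over the 8 pairs, libraries of both ages did not overlap for 4 in controls and 6 in recipients. For levels of single genes, 34.6% and 45.4% of all genes did not overlap, and no share was computed for ratios of other genes.

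**Figure D3:**
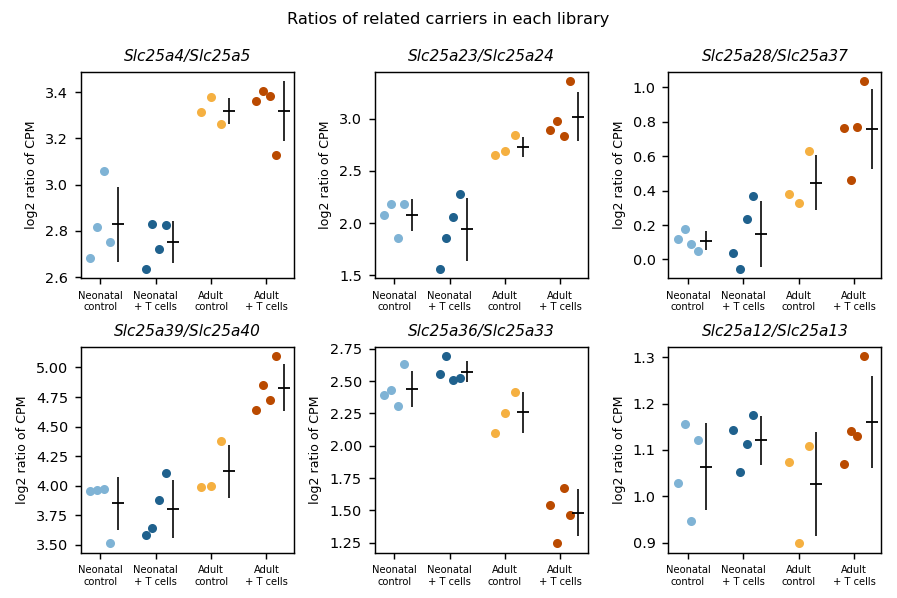
Log2 ratio of CPM of 6 pairs of related carriers in each library of the 4 groups, with a tick and bar for the mean and SD. Neonatal and adult libraries are apart for Slc25a4/Slc25a5 and Slc25a23/Slc25a24, Slc25a36/Slc25a33 is lowest in adult recipients, and Slc25a12/Slc25a13 overlaps in all groups; the vertical axes do not start at 0.

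Adult T cells in neonatal hearts left no carrier past the test. Of 41 members, 0 were called by edgeR, as of all genes (0%), and DESeq2 called 0 members too. At an unadjusted p below 0.05 there were 0 members and 513 genes in all. The libraries of both groups overlapped for each tested member, where 1.36% of all genes did not overlap. Signs were split, 19 up and 22 down, and the median was -0.01 over members and -0.00 over all genes. Among the smallest p-values were those of Slc25a45, Slc25a30 and Slc25a31, each with an adjusted p of 0.999. Slc25a45, a carrier of uncertain substrate, had 10.2, 9.55, 11.2 and 11.2 CPM in recipients and 11.3, 9.72, 8.51 and 7.95 in controls (0.17 ± 0.10999). Slc25a30 had 17.6, 17.6, 16.96 and 15.04 CPM against 17.7, 18.2, 17.6 and 20.9 (-0.15 ± 0.0992). Slc25a31 had 0.509, 0.364, 0.169 and 0.217 against 0.603, 1.004, 0.669 and 0.112 CPM (-0.89 ± 0.628), values near the counting floor. In all 3 the groups overlapped. For Slc25a4 the approximate 95% interval of the log2 difference ran from -0.29 to 0.10, and for Slc25a34 from -0.47 to 0.09. Both intervals take the standard error as normal, so they are somewhat narrower than the F test implies.

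In adult hearts the same transfer came with 5 called members (12.2%, against 8.55% of all genes), 3 higher in recipients against 3.53% of all genes and 2 lower against 5.03%. None of them changed by as much as 2-fold. Libraries did not overlap for 12 members, 4 of them called, against 25.1% of all genes. Signs were again split, with 20 positive and 21 negative values and a median of -0.00 over both members and all genes.

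Slc25a33, which carries pyrimidine nucleotides for mitochondrial DNA and RNA, had 12.1, 14.8, 12.6 and 12.1 CPM in the 4 adult recipients, against 9.44, 10.03 and 7.67 CPM in the 3 adult controls. Each recipient lay above each control, and the gene was higher by 0.51 ± 0.124 (adjusted p = 0.0236). Its relative Slc25a36, with 35.4, 35.1, 40.4 and 33.4 against 40.6, 48.01 and 41.1 CPM, lay lower in each recipient but missed the threshold (-0.26 ± 0.0841, adjusted p = 0.0574). The log2 ratio of Slc25a36 to Slc25a33 was 1.48 ± 0.181 in adult recipients and 2.26 ± 0.157 in adult controls, a difference of -0.77 (exact permutation p = 0.0286, the smallest possible). In neonates that ratio was 2.57 ± 0.0822 and 2.44 ± 0.137, with 7.99, 7.703, 8.65 and 8.13 and 8.66, 8.41, 10.7 and 8.099 CPM of Slc25a33 and 47.2, 49.98, 49.5 and 47.02 and 45.7, 45.5, 53.1 and 50.3 CPM of Slc25a36 in recipients and controls.

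Slc25a39, which imports glutathione, had 231, 254, 237 and 261 CPM in adult recipients and 195, 196 and 193 in adult controls, apart (0.34 ± 0.0817, adjusted p = 0.0236). Its relative Slc25a40 had 9.2004, 8.76, 8.902 and 7.59 against 12.2, 12.3 and 9.21 CPM, in the other direction and without a call (-0.38 ± 0.12000, adjusted p = 0.0524). The groups were apart only by the margin between 9.2004 and 9.21 CPM, nearly a tie. Their log2 ratio was 4.83 ± 0.197 in adult recipients and 4.12 ± 0.225 in adult controls, a difference of 0.71. Neonatal recipients and controls had 167, 161, 183 and 196 and 180.2, 177, 184 and 155 CPM of Slc25a39 and 13.9, 12.8, 12.4 and 11.3 and 11.6, 11.3, 11.7 and 13.6 CPM of Slc25a40, all overlapping.

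Slc25a1, which exports citrate for lipid synthesis, had 16.99, 17.2, 14.6 and 16.9 CPM in adult recipients and 12.2, 10.2 and 14.5 in adult controls (0.41 ± 0.119, adjusted p = 0.0409), apart by a small margin. Slc25a32, the folate carrier, was lower at 10.8, 10.8, 10.03 and 9.25 against 12.3, 14.97 and 13.3 CPM (-0.41 ± 0.0934, adjusted p = 0.021000), without overlap. Slc25a30, an uncoupling-protein-like carrier, was lower at 12.7, 12.3, 14.1 and 11.4 against 16.3, 18.8 and 13.9 CPM, with overlap (-0.37 ± 0.10998, adjusted p = 0.0444). In neonates the same 3 genes had log2 differences of 0.04 ± 0.108, -0.00 ± 0.0847 and -0.15 ± 0.0992. The mitoferrins showed no call in adults, with Slc25a28 at 30.7, 25.996, 30.2 and 30.4 CPM and Slc25a37 at 18.04, 18.8, 17.7 and 14.8 CPM in recipients, nor did the most abundant carriers Slc25a4 (0.20 ± 0.106), Slc25a3 (0.24 ± 0.0841) and Slc25a5 (0.21 ± 0.0764).

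**Figure D4:**
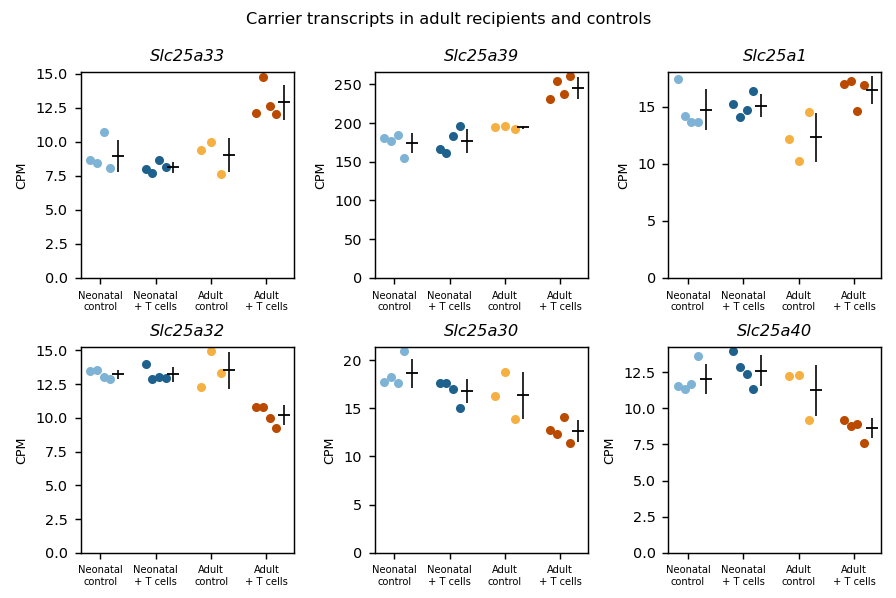
CPM per library in the 4 groups for the 5 carriers called between adult recipients and adult controls and for Slc25a40, with a tick and bar for the mean and SD. Adult recipients are above adult controls for Slc25a33, Slc25a39 and Slc25a1 and below for Slc25a32. For Slc25a40 they nearly touch, and Slc25a30 overlaps.

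The adult comparison moved with transcript length. Across the 41 members the Spearman correlation of length with the log2 difference was -0.466, and across 15333 genes it was -0.448, given as a description since genes of 1 library share its preparation. The genes higher in recipients had short transcripts, of 1887 bases for Slc25a33, 1685 for Slc25a39 and 1666 for Slc25a1. Of the lower ones, Slc25a32 had a long transcript of 5905 bases. Slc25a30, at 3588 bases, lay near the median of 3271 over the 15333 genes. With a length trend removed per library, none of the 5 passed: the log2 differences were 0.41 for Slc25a33 (adjusted p = 0.106), 0.22 for Slc25a39 (0.104), 0.30 for Slc25a1 (0.128), -0.35 for Slc25a30 (0.109) and -0.25 for Slc25a32 (0.1599), and 0 of all genes passed either. The relatives of Slc25a39 and Slc25a33 had longer transcripts, of 4467 bases for Slc25a40 and 5227 for Slc25a36. Removal of the trend moved Slc25a40 from -0.38 to -0.30 and Slc25a36 from -0.26 to -0.13. The ratios of Slc25a39 to Slc25a40 and of Slc25a36 to Slc25a33 were not corrected for length. DESeq2 called 9 members, adding Slc25a40, Slc25a36, Slc25a3 and Slc25a5, and gave no adjusted p for 4. With edgeR the call count fell to 0 without adult control 5, adult control 6 or adult recipient 4, and to 1 without adult recipient 2. Adult recipients had summed cardiomyocyte markers of 51220 to 57270 CPM against 42550 to 44860 in adult controls, with 2 of 6 genes called higher, erythroid markers of 2176 to 3075 against 1686 to 1819, and 28 oxidative phosphorylation genes with a median of 0.27. That comparison had 3.53% of all genes called higher. The part of these markers and genes in the carrier differences was not tested. In the neonatal T cell comparison the correlation with length was 0.214 over members and -0.03 over all genes, and in the age comparison of controls it was -0.04 and 0.05. In the age comparison of recipients it was 0.209 and 0.26.

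**Figure D5:**
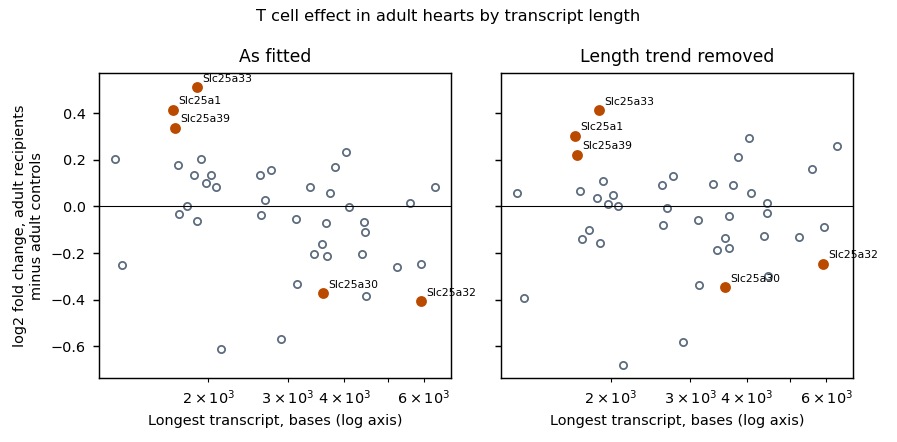
Log2 fold change of each tested carrier, adult recipients minus adult controls, against the length of its longest transcript on a log axis, as fitted (left) and with the length trend removed (right). The 5 called genes are filled; Slc25a33, Slc25a1 and Slc25a39 are short and high, Slc25a30 and Slc25a32 longer and low, and all 5 lie nearer to 0 on the right.

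Whether the T cell effect differed between ages was tested directly, and 0 of 41 members passed with edgeR, as 0% of all genes, with 9 members and 2511 genes at an unadjusted p below 0.05. DESeq2 called 0 members but gave no adjusted p for 16, among them Slc25a33, Slc25a32 and Slc25a40. The 4 members with the smallest p were Slc25a33 (-0.66 ± 0.169, neonatal minus adult effect, adjusted p = 0.182), Slc25a32 (0.40 ± 0.126, adjusted p = 0.194), Slc25a39 (-0.32 ± 0.111, adjusted p = 0.2101) and Slc25a40 (0.45 ± 0.161, adjusted p = 0.215). This comparison shares its adult libraries with the adult T cell comparison, so both sets of values carry the same deviations of those libraries. The calls in adult hearts are therefore not shown to be absent from neonatal hearts.

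Some counts are less certain than their depth. Of the 41 tested members, 34 had fractional counts, as arises when a read is divided between features, and reads of close relatives such as Slc25a4 and Slc25a5 could be divided so. Overlapping genes were found for 14 of all 47 members, among them the untested Slc25a2 and Slc25a21. On opposite strands, for example, Slc25a11 overlaps Rnf167 by 302 bases, Slc25a26 overlaps Lrig1 by 131 and Slc25a35 overlaps Rangrf by 33. Total counts were 136746 for Slc25a11 against 17142 for Rnf167. They were 5902 for Slc25a26 against 14258 for Lrig1, and 847 for Slc25a35 against 8837 for Rangrf. Larger overlaps include Slc25a37 with a long noncoding RNA (7555), Slc25a53 with Zcchc18 (6094) and Slc25a25 with Naif1 (1014). On the same strand, Slc25a37 overlaps Gm31896 by 3181 bases and Slc25a39 overlaps Mir6930 by 68. Slc25a3 and Slc25a43 each overlap a small nucleolar RNA there, by 246 and 102. The library kit keeps strand, but the strand setting of the counting is not given in the sources used here. Reads of overlapping pairs therefore cannot be told apart with certainty.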

How the data were processed

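RNA from 15 ventricle libraries was sequenced by the submitters. The deposited values are estimated counts per gene made by the authors, and 61.07% of the values above 0 are whole numbers. Per the submitters' processing notes, the tools were bcl2fastq 2.20.0.422, cutadapt 2.5, STAR 2.7.2b, featureCounts 1.6.4 and DESeq2 1.24.0, with genome build GRCm38.p6; the strand setting and the rule for shared reads are not given in the sources used here. Groups were taken from the sample labels.

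Counts were rounded to whole numbers and genes kept by edgeR's filter (minimum count 10, minimum total 15). TMM scaling and edgeR's robust quasi-likelihood F test (edgeR 4.0.16, limma 3.58.1, R 4.3.3) were run in 1 model of 4 groups, with Benjamini-Hochberg adjustment over 16437 genes. Standard errors were derived by dividing the size of each log2 difference by the square root of F. CPM use the TMM-scaled total, while the floor of 3 counts uses the unscaled total. Ratios of relatives were taken on log2 CPM with a prior count of 1 and compared by exact two-sided permutation tests. The column of gene lengths in the table equals the genomic span, so the longest transcript in the GENCODE M21 reference was used for values per kilobase and for the length trend, fitted per library as a natural spline with 5 degrees of freedom over 15333 genes. Alternatives were DESeq2 1.42.0, its size factors, no filter on low counts, a prior count of 5 for the ratios, removal of the length trend, a replicate block and each library left out. The procedure was tested on simulated data.

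Members, gene lists and pairs were chosen with earlier results of these data known, and the promoter motifs after the data were seen; a shorter form of TATAAA was looked at and dropped. Values per library are given for both members of each pair, for the 8 largest rises and 8 largest falls between control ages with at least 5 CPM in the higher group, for members called in the T cell comparisons and, where none was called, for the 4 with the smallest p. Up to 4 genes per further list were named by their p in the control age comparison. Slc25a43 and the other members given with values outside this rule were chosen after their values were seen. Single results for 1 member and for some genes of the further lists are not reported here, although they are included in the counts.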

Additional observations from a re-analysis of the deposited data

Results flagged for a closer look

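In 11 of 90 groups of 4 libraries, over 30 carrier genes, 1 library lay apart from the other 3 by more than the 95% critical value of Dixon's gap ratio. Chance alone sets about 1 in 20 such groups apart. In neonatal recipients, library 1 had 14.01 CPM of Slc25a32 where the others had 12.86 to 13.04. Library 5 of that group had 20.9 CPM of Slc25a16 (others 23.23 to 23.33) and 131.1 CPM of Slc25a23 (others 109.5 to 111.3).

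Among neonatal controls, library 6 had 17.38 CPM of Slc25a1 (others 13.64 to 14.19), library 7 had 21.68 CPM of Slc25a22 (others 19.61 to 19.91) and library 9 had 13.57 CPM of Slc25a40 (others 11.34 to 11.69). Library 8 had 15.74 CPM of Slc25a26 (others 12.05 to 12.49) and 100.9 CPM of Slc25a23 (others 123.6 to 127.2).

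Adult recipients had 3 such values. Library 3 had 14.58 CPM of Slc25a1 (others 16.88 to 17.24), library 4 had 0.7517 CPM of Slc25a43 (others 0.2446 to 0.3188) and library 2 had 26 CPM of Slc25a28 (others 30.18 to 30.7). Adult controls, with 3 libraries, were not examined this way.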

How the results depend on the processing

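No called log2 difference changed direction under the alternatives run; values near 0 that were not called did in places, such as Slc25a5 and Slc25a15 between recipient ages with the length trend removed. For T cells in adult hearts, DESeq2 called 9 members in place of 5, removal of the length trend left 0, and leaving out 1 library gave 0 to 6: 0 without adult control 5, adult control 6 or adult recipient 4, 1 without adult recipient 2, and 3 without adult recipient 1, neonatal control 7 or neonatal recipient 4. Over all genes that comparison had 1406 calls, 2324 with DESeq2, 0 without the length trend and 0 to 1811 with a library left out. Between control ages, leaving out 1 library gave 10 to 18 members and 3588 to 5523 of all genes, beside 17 and 5085. Without the filter on low counts 13 of those 17 calls passed, and 4 of the 5 in adult T cell recipients. Slc25a34, Slc25a22, Slc25a42, Slc25a24, Slc25a43, Slc25a38, Slc25a26 and Slc25a20 passed in all 15 fits with 1 library left out, Slc25a16 in 12, Slc25a11 in 11, Slc25a4 and Slc25a12 in 10, Slc25a3 in 9 and Slc25a47 in 5. Between recipient ages the range was 24 to 26, and 23 of 25 calls passed with the length trend removed. The T cell comparison in neonates and the difference of T cell effects had 0 members in each alternative, although DESeq2 gave no adjusted p for 16 members in the difference. Over all genes the difference had 174 calls with DESeq2, and the neonatal comparison had 9 without neonatal control 6. Replicate numbers shared by both ages gave correlations of deviations of 0.0721, 0.111 and -0.0709 in recipients (numbers 1, 2 and 4). In controls (numbers 6 and 7) they were -0.0614 and 0.31. Recipient number 2 and control number 7 matched their own number best, and the others did not. So few values cannot settle whether the numbers pair the libraries. With the number as a block, 16 members and 3927 of all genes were called in controls, and 24 and 7276 in recipients. The same 4 control libraries without the block gave 11 members and 3021 genes, and the same 6 recipient libraries 25 and 7330, an alternative added after the data were seen. Causes were not tested. Members near the counting floor, such as Slc25a31, are limited by depth.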
